A study of Mus musculus with 3 samples.

Results

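The collagen genes of the mouse were followed across the stromal and endothelial cells of Peyer's patches (PP). They were taken by symbol (Col, a number, the letter a and a second number), which gave 44 of the 31053 genes common to the 3 files. All 44 were found in the gene annotation. Each had at least 1 unique molecular identifier (UMI, the count of 1 captured RNA molecule), 24 had 50 UMIs or more over all barcodes and 20 had fewer. By the kind of collagen they encode, 11 were fibrillar, 9 fibril-associated, 6 of the basement membrane network (type IV), 6 of the beaded filament (type VI and its relatives), 4 transmembrane, 3 short chain, 2 multiplexins, 1 of the anchoring fibril and 2 other.

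Collagens are built from chains that wind around each other in a triple helix. Fibroblasts secrete the fibrillar collagens that give connective tissue its tensile strength, with type VI filaments and fibril-associated collagens bound to the fibrils. Type IV collagen forms the sheet of the basement membrane on which endothelium, mural cells and glia rest, and the multiplexins lie at the edge of that sheet, where fragments of them are known to restrain vessel growth.

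The series holds droplet 3′ RNA sequencing of PP endothelium in 3 libraries. The control library is labelled WT, strain C57BL/6. The methods of the study give littermates without the Cre transgene as controls, and its results name WT mice beside them. The title WT does not settle whether this library came from such littermates. The EC-iCOUPOE libraries, replicates 1 and 2, are labelled CDH5(PAC)CreERT2;COUP-TFIIOE/OE: a tamoxifen-inducible Cre under the *Cdh5* promoter, active in blood and lymphatic endothelium, switches on COUP-TFII, the transcription factor encoded by *Nr2f2*. Tamoxifen was given to mice aged 6 to 10 weeks and cells were taken 14 to 19 days later, with males and females pooled. The number of mice per library is not given in the sources used here. In blood endothelial cells (EC) *Nr2f2* stood at 118, 1700.0 and 1166 UMIs per 1000000 UMIs of the cells (CPM) in the control library, replicate 1 and replicate 2, the order used for every set of 3 values here.

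The libraries held 6080, 4959 and 1441 barcodes with 17341398, 17417260 and 3548983 UMIs, and 10957 cells were used. The control library and replicate 2 shared 12 barcodes, and replicate 1 shared 0 with either. Although the samples are labelled as blood EC, a large part of the control library was stroma. It held 2474 blood EC, 2461 fibroblasts, 197 glia, 22 pericytes, 21 smooth muscle cells and 0 lymphatic EC (LEC). Replicate 1 held 3509 blood EC, 898 LEC, 53 pericytes, 45 smooth muscle cells and 5 fibroblasts, and replicate 2 held 997, 122, 43, 45 and 4 of these. Fibroblasts and glia could therefore be described in the control library only, and LEC in the EC-iCOUPOE libraries only. Type names rest on marker genes and stand for cells like that type, and an unnamed cluster is called by 2 of its leading genes. The study's lamina propria CapEC could not be told apart as a cluster of its own. The named types carried markers of their lists, though not all of them. LEC held 8105 and 815 UMIs of *Lyve1* in replicates 1 and 2, and glia 340 UMIs of *S100b*. Pericytes held 176, 437 and 365 UMIs of *Rgs5* but 0, 2 and 1 of *Abcc9*. Pi16-positive fibroblasts held 0 UMIs of *Gdf10* and 2 of *Dpp4*, and subepithelial fibroblasts 1 of *Nrg1*. Control high endothelial cells held 5 UMIs of *Chst4*, and arterial EC 156, 6 and 0 of *Gkn3*. Levels are CPM of the UMIs summed over the cells of a type in a library. A UMI counts a captured molecule whatever its length, but how well each gene is captured was not measured. Where different genes are set side by side, the comparison is of UMIs captured. Intervals are exact 95% intervals and cover counting error only.

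The sequences of the start sites are shown for genes whose levels the results turn on. *Col4a1* (chromosome 8 from 11198423 to 11312826, minus strand) and *Col4a2* (chromosome 8 from 11312805 to 11449287, plus strand, GRCm38) encode the α1 and α2 chains of type IV collagen and lie head to head. Their annotated first bases overlap by 22 bases, printed in capitals with 4 bases on each side, on the plus strand of GRCm38.p6 at chr8:11312801-11312830, from RefSeq:
Col4a1 and Col4a2 starts: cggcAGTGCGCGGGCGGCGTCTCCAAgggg
For *Col1a2* (fibrillar, the α2 chain of type I), *Col13a1* (transmembrane, high in capillary EC) and *Col23a1* (transmembrane, high in LEC), the 250 bases before the start follow on the strand of the gene. Capitals mark GGGCGG or CCGCCC (the GC box on either strand), CCAAT or ATTGG (the CCAAT box on either strand) and TATAAA on the gene's strand (the TATA box).
Col1a2, chr6:4505368-4505617, plus strand: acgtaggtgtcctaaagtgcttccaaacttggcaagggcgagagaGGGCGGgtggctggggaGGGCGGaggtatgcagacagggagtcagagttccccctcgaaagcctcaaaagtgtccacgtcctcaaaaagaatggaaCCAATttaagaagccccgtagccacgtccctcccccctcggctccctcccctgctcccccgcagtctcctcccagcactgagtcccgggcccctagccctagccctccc
Col13a1, chr10:61979109-61979358, minus strand: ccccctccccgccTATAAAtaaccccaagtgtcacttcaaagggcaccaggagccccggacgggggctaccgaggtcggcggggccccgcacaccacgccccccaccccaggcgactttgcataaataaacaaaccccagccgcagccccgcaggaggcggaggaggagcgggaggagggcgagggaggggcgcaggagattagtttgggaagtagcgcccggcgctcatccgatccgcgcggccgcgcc
Col23a1, chr11:51289670-51289919, plus strand: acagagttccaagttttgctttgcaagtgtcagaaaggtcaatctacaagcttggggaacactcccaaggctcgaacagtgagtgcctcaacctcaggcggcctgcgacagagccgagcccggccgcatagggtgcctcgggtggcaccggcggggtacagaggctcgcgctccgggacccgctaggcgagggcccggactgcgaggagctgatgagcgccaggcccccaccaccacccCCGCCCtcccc
RefSeq promoters matched 35 of the 44 genes by symbol. The GC box was present in 21 of the 35 and in 32.9% of all 27025 genes with a promoter in the table, the CCAAT box in 12 of the 35 and 34.5%, and TATAAA in 5 of the 35 (*Col3a1*, *Col10a1*, *Col11a2*, *Col13a1* and *Col17a1*) and 8.12%. These matches describe the letters and are not binding sites.

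Fibroblasts gave by far the largest part of their RNA to collagens. The 44 genes together made up 1.68% of the UMIs of control fibroblasts (95% interval 1.67 to 1.69%), and 0.314% of those of glia. The share was 0.177 ± 0.058% (SD, n = 3) in pericytes, 0.15 ± 0.0433% (SD, n = 3) in smooth muscle, 0.108 ± 0.0172% (SD, n = 3) in blood EC and 0.102 ± 0.0156% (SD, n = 2) in LEC, where SD is over libraries of both genotypes. The ranges of pericytes and smooth muscle over libraries overlapped, as did those of blood EC and LEC, and every value lay below glia and fibroblasts. Haematopoietic cells, which make little collagen, held 6 collagen UMIs in 16 control cells and 3 in 24 cells of replicate 1.

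**Figure D1:**
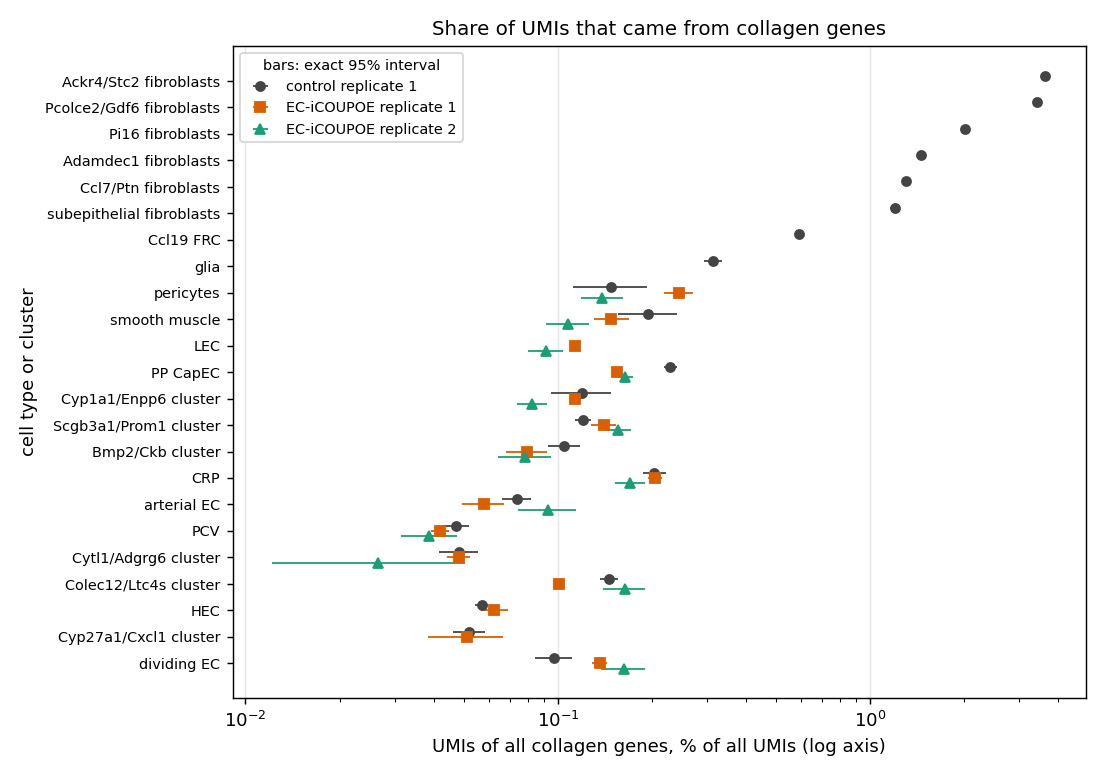
UMIs of the 44 collagen genes as a percentage of all UMIs of a cell type (x axis, log scale), with 1 row for each type or cluster and 1 symbol for each library with 10 cells or more; bars are exact 95% intervals. Fibroblast types lay between 0.59 and 3.62%, glia at 0.314%, and blood EC subsets between 0.0265 and 0.229%.

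Within fibroblasts the share varied widely. 4 of the 7 groups could be named by markers and 3 are called by their leading genes. Ackr4/Stc2 fibroblasts (207 cells) gave 3.62% of UMIs to collagens, Pcolce2/Gdf6 fibroblasts (268 cells) 3.42%, Pi16-positive adventitial fibroblasts (111 cells) 2.01%, Adamdec1-positive fibroblasts (1102 cells) 1.45%, Ccl7/Ptn fibroblasts (362 cells) 1.3% and subepithelial fibroblasts (98 cells) 1.2%. The Ccl19-positive fibroblastic reticular cells (FRC, 313 cells) gave the least at 0.59% (95% interval 0.576 to 0.604%), below every other fibroblast group beyond counting error. They held *Cxcl13* at 342 CPM beside *Ccl19* at 2891 CPM, and no zone of the tissue is assigned to them.

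**Figure D2:**
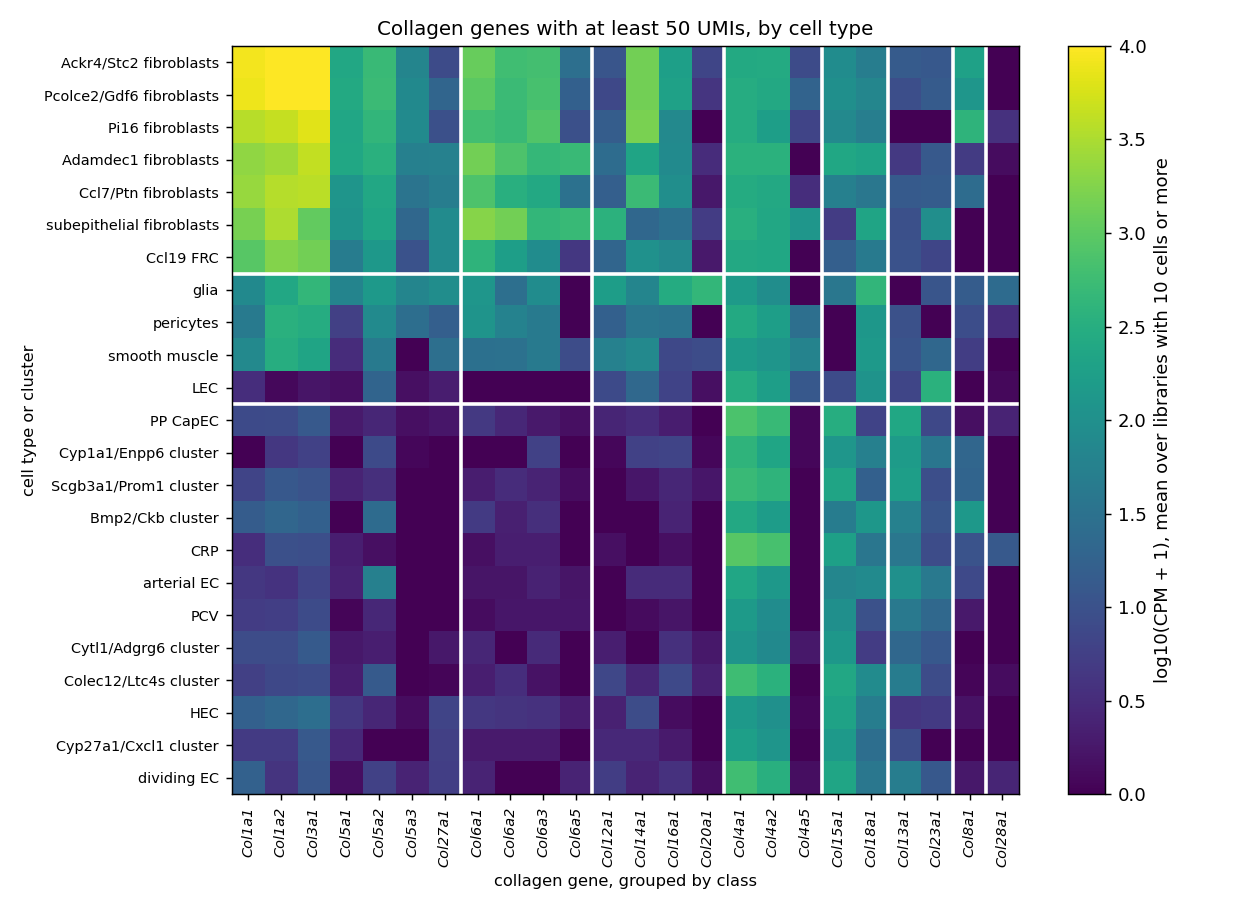
Level of the 24 collagen genes with at least 50 UMIs (columns, grouped by class) in each cell type or cluster (rows), as log10(CPM + 1) of the mean over libraries with 10 cells or more. Fibroblasts carry the fibrillar and type VI genes at left, and endothelial rows are brightest for *Col4a1*, *Col4a2*, *Col15a1*, *Col13a1* and, in LEC, *Col23a1*.

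The fibrillar genes led in fibroblasts. *Col3a1* (type III) stood at 4980.0 CPM, *Col1a2* at 4199 CPM and *Col1a1* (the α1 chain of type I) at 3200.1 CPM over all control fibroblasts. *Col1a2* ranged from 1816 CPM in Ccl19 FRC to 10483 CPM in Ackr4/Stc2 fibroblasts, and *Col1a1* from 915 to 8538 CPM in the same groups. *Col3a1* was lowest in subepithelial fibroblasts (1111 CPM, 95% interval 982 to 1254) rather than in Ccl19 FRC (1393 CPM, 95% interval 1326 to 1462). Type I collagen is usually built from both chains, and the ratio of *Col1a2* to *Col1a1* UMIs lay between 1.20 and 2.09 in the 7 groups. The type V chains that start fibril assembly were lower, with *Col5a2* at 325 CPM, *Col5a1* at 185 CPM and *Col5a3* at 46.6 CPM. *Col27a1*, a fibrillar chain known from cartilage, went the other way among the groups: it was at 83.2 CPM in Ccl19 FRC and 83.9 CPM in subepithelial fibroblasts, against 7.33 CPM in Ackr4/Stc2 fibroblasts.

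Type VI collagen, which links cells to fibrils, was high in every fibroblast group. *Col6a1*, *Col6a2* and *Col6a3* were at 1036, 564 and 413 CPM over all fibroblasts, and *Col14a1*, the leading fibril-associated collagen, at 533 CPM. Subepithelial fibroblasts held the highest *Col6a1* (1896 CPM) and *Col6a2* (1388 CPM), and there both passed the level of *Col3a1*. The related chain *Col6a5* marked 2 groups, Adamdec1 fibroblasts at 506 CPM and subepithelial fibroblasts at 499 CPM, and was between 3.4 and 30.1 CPM in the other 5. Of the fibril-associated collagens, *Col14a1* was highest in Pi16 (1541 CPM), Pcolce2/Gdf6 (1398 CPM) and Ackr4/Stc2 fibroblasts (1391 CPM) and lowest in subepithelial fibroblasts (21 CPM). *Col12a1*, its close relative, was the reverse, at 377 CPM in subepithelial fibroblasts and at most 25.4 CPM in the other 6 groups. *Col8a1*, a short-chain collagen of vessel walls, was highest in Pi16 fibroblasts at 400.4 CPM.

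The basement membrane genes lay in narrow ranges among fibroblasts. *Col4a1* lay between 263 and 357 CPM and *Col4a2* between 172 and 355 CPM in the 7 groups. The multiplexins varied more. *Col15a1* was at 239 CPM in Adamdec1 fibroblasts and 15.3 CPM in Ccl19 FRC, with 1 UMI in subepithelial fibroblasts, and *Col18a1*, whose end fragment is endostatin, was at 218 and 206 CPM in subepithelial and Adamdec1 fibroblasts and between 37.2 and 67.3 CPM in the other 5. *Col4a5*, a minor type IV chain, held 30 of its 51 fibroblast UMIs in subepithelial fibroblasts (126 CPM), and *Col23a1* was also highest there among fibroblasts (92.3 CPM).

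Each fibroblast group was also set against the other fibroblasts pooled. A gene was called where it differed at least 2-fold, among genes that reached 50 UMIs on either side. These calls describe 1 library and carry no test, since the groups were made from the same cells, although the collagens were left out of the genes used for clustering. A gene under 50 UMIs on 1 side was tested only through the other side. *Col15a1*, with 18 UMIs in Ccl19 FRC, was such a gene. No excess over the share of all genes is therefore read from the counts that follow. In Ccl19 FRC 16 of 21 collagens were called lower and 0 higher, where 14.7% of all genes tested were called in either direction. The 5 not called lower were *Col4a1*, *Col4a2*, *Col12a1*, *Col16a1* and *Col27a1*. Pcolce2/Gdf6 fibroblasts had 6 higher and 3 lower of 20 tested (11.3% of all genes tested), and Ackr4/Stc2 fibroblasts had 5 higher and 4 lower of 20 tested (10.5% of all genes tested); in both, *Col1a1*, *Col1a2*, *Col3a1*, *Col8a1* and *Col14a1* were among those higher. Subepithelial fibroblasts had 4 higher and 7 lower of 21 tested (17.6% of all genes tested), with *Col6a2*, *Col6a5*, *Col12a1* and *Col23a1* higher. Pi16 fibroblasts had 3 higher and 4 lower of 21 tested (12.6% of all genes tested), with *Col6a3*, *Col8a1* and *Col14a1* higher, and Adamdec1 fibroblasts had 3 higher and 3 lower of 21 tested (8.60% of all genes tested), with *Col6a5*, *Col15a1* and *Col18a1* higher. Ccl7/Ptn fibroblasts had 0 higher and 5 lower of 20 tested (7.15% of all genes tested).

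Against the blood EC of the same library, fibrillar and type VI genes were among those called higher in every fibroblast group. In Ackr4/Stc2 fibroblasts, 11 of 17 were higher (10.1% of all genes tested) and 1 lower (22.5%). In Pcolce2/Gdf6 fibroblasts, 11 of 17 were higher (9.67% of all genes tested) and 1 lower (22.8%). In Pi16 fibroblasts, 10 of 16 were higher (9.95% of all genes tested) and 2 lower (17.2%). In Adamdec1 fibroblasts, 15 of 21 were higher (13.6% of all genes tested) and 2 lower (16.2%). In Ccl7/Ptn fibroblasts, 11 of 18 were higher (9.92% of all genes tested) and 2 lower (20.8%). In subepithelial fibroblasts, 11 of 16 were higher (14.9% of all genes tested) and 2 lower (12%). In Ccl19 FRC, 11 of 18 were higher (8.78% of all genes tested) and 3 lower (21.0%). *Col1a1*, *Col1a2*, *Col3a1*, *Col5a2*, *Col6a1*, *Col6a2* and *Col6a3* were higher in all 7, and *Col13a1* was lower in all 7. Control blood EC held under the 50 UMIs of the rule for *Col5a2*, *Col6a1*, *Col6a2* and *Col6a3*. These genes were thus tested only through the fibroblasts, where they were high. No excess over the share of all genes is read from these counts. *Col4a1* and *Col4a2* were called in none of the 7, that is, they differed by less than 2-fold from blood EC in the control library.

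Glia, which ensheathe enteric and perivascular nerves, had a collagen profile of their own. *Col20a1*, a fibril-associated collagen, stood at 443 CPM (95% interval 370.3 to 527) in the 197 control glia and at 2.12 CPM in fibroblasts, with 129 UMIs in glia, 15 in fibroblasts and 5 in blood EC of the control library. *Col3a1* was at 437, *Col18a1* at 433, *Col16a1* at 285 and *Col1a2* at 248 CPM. *Col18a1* and *Col16a1* were thus higher in glia than in every fibroblast group. *Col28a1*, a collagen known from Schwann cells, had 7 UMIs in glia (24.1 CPM) and 2 in all fibroblasts. Against blood EC, 6 of 12 were higher (16.7% of all genes tested) and 3 lower (13.8%). *Col13a1*, *Col15a1* and *Col4a2* were those lower. They reached the 50 UMIs of the rule only in blood EC, and *Col20a1* and *Col16a1*, called higher, only in glia. Each of these was thus tested only through the side on which it was high. No excess over the share of all genes is read from these counts. Control glia also lie in the library that held the fibroblasts. Of the 10 fibroblast genes other than collagens, *Gsn* (gelsolin) stood at 22.4% of its fibroblast level in glia, *Serping1* at 8.24%, *Fbln1* at 7.99%, *Dcn* (decorin) at 0.171% and the other 6 at 0 to 0.658% (*C3*), and the 9 without *Serping1* summed to 2492 CPM. *Col1a2* stood at 5.89%, *Col3a1* at 8.77% and *Col1a1* at 2.47%. The part of fibroblast RNA in these glial levels was not tested.

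Pericytes, the mural cells of capillaries, were measured in all 3 libraries and showed *Col1a2* without much *Col1a1*. *Col1a2* stood at 397, 392 and 251 CPM and *Col1a1* at 26.4, 49 and 56.8 CPM (1, 7 and 7 UMIs). The ratio of *Col1a2* to *Col1a1* UMIs was 15, 8.0 and 4.43, and each lower 95% limit (2.31, 3.64 and 1.91) lay above the 1.31 of pooled fibroblasts. The limit in replicate 2 lay below the 2.09 of subepithelial fibroblasts and the 1.98 of Ccl19 FRC. The trait was not particular to pericytes: the ratio was 3.8, 2.93 and 12.3 in smooth muscle and 3.13 (95% interval 1.93 to 5.25) in glia. Besides these, pericytes carried *Col3a1* at 302 ± 278 CPM (SD, n = 3), *Col4a1* at 272 ± 93.4 CPM (SD, n = 3), *Col4a2* at 176 ± 83.7 CPM (SD, n = 3) and *Col18a1* at 129.8 ± 24.1 CPM (SD, n = 3). *Col15a1* was at 0 UMIs in pericytes and smooth muscle of every library. Against blood EC, in every library, 2 of 11 were higher (2.16% of all genes tested) and 1 lower (1.57%), namely *Col1a2* and *Col18a1* higher and *Col15a1* lower. In smooth muscle, 3 of 11 were higher (2.78% of all genes tested) and 2 lower (2.23%), with *Col1a2*, *Col3a1* and *Col18a1* higher and *Col4a1* and *Col15a1* lower. In both mural types the genes called lower reached the 50 UMIs of the rule only in blood EC. No excess over the share of all genes is read from these counts. *Col1a2* was at 435, 256 and 251 CPM and *Col18a1* at 137, 143 and 143 CPM in smooth muscle, with *Col3a1* at 343, 237 and 67.9, *Col4a1* at 137, 162 and 169.7 and *Col4a2* at 114, 156 and 95 CPM. The 3 values of *Col18a1* lay within counting error of each other.

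LEC differed from blood EC in their transmembrane and multiplexin collagens. *Col23a1*, a transmembrane collagen, was the highest collagen of LEC at 423 and 286 CPM in replicates 1 and 2, against 24.2 and 12.7 CPM in the blood EC of the same libraries, or 17.5- and 22.6-fold higher. In the other direction, *Col15a1* had 15 and 2 UMIs in LEC (6.66 and 7.52 CPM) where blood EC stood at 148 and 218 CPM. *Col13a1* likewise had 9 and 2 UMIs in LEC (3.99 and 7.52 CPM), against 85.6 and 149 CPM in blood EC. *Col18a1* was at 126 and 97.8 CPM, 2.93- and 3.19-fold above blood EC. The fibril-associated *Col14a1* was low but present at 24 and 18.8 CPM (54 and 5 UMIs). By the 2-fold rule in both libraries, 3 of 8 were higher (6.35% of all genes tested) and 2 lower (4.87%). Of those called, *Col14a1* reached the 50 UMIs of the rule only in LEC, and *Col13a1* and *Col15a1* only in blood EC. Each was thus tested only through the side on which it was high. No excess over the share of all genes is read from these counts. *Col4a1*, at 298 ± 43.3 CPM (SD, n = 2), and *Col4a2*, at 171 ± 13.5 CPM (SD, n = 2), did not differ from blood EC 2-fold in both libraries.

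Blood EC used few collagens, and the type IV chains led. *Col4a1* stood at 290.3, 428 and 539 CPM, *Col4a2* at 236, 276 and 293 CPM and *Col15a1*, a multiplexin of the outer basement membrane, at 162, 148 and 218 CPM. Next came *Col13a1*, a transmembrane collagen, at 62.4, 85.6 and 149 CPM, *Col18a1* at 39.2, 43.2 and 30.6 CPM and *Col23a1* at 8.69, 24.2 and 12.7 CPM. In all, 11 collagens reached 50 UMIs in at least 1 EC subset of 1 library, the other 5 being *Col1a1*, *Col1a2* and *Col3a1* in control high endothelial cells (HEC), *Col8a1* in the Bmp2/Ckb cluster and *Col14a1* in LEC.

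Type IV collagen was highest in capillary resident progenitors (CRP), but for *Col4a1* in dividing EC of replicate 2 (838 CPM), and was also high in capillary EC (CapEC). *Col4a1* was at 897, 1038 and 834 CPM in CRP and 826, 664 and 702 CPM in PP CapEC, against 134, 154 and 155 CPM in postcapillary venules (PCV) and 119.9 and 174 CPM in HEC of the control library and replicate 1. The Colec12/Ltc4s cluster, at 562, 444 and 716 CPM, came close to PP CapEC. The PCV and HEC values did not overlap those of CRP and PP CapEC. *Col13a1* was high in PP CapEC and a pair of clusters known by their leading genes, and low in CRP. It was at 269.8, 214 and 231 CPM in PP CapEC, 177, 165 and 187 CPM in the Scgb3a1/Prom1 cluster and 159.8, 162 and 144 CPM in the Cyp1a1/Enpp6 cluster, but at 28.7, 38.9 and 46.9 CPM in CRP. HEC were close to 0 for it, with 5 UMIs in 362 control cells and 3 in 80 cells of replicate 1.

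The 2 multiplexins were spread differently. *Col15a1* was at 378, 228 and 312 CPM in PP CapEC and low in the Bmp2/Ckb cluster (11.1, 27.3 and 101 CPM) and arterial EC (107, 45.9 and 51.6 CPM). *Col18a1* was nearly absent from PP CapEC (1, 18 and 5 UMIs) and PCV (7, 13 and 3 UMIs). It stood at 89, 209.6 and 86.5 CPM in the Bmp2/Ckb cluster, 54.7, 131 and 62 CPM in arterial EC, 79.8, 48.3 and 121 CPM in the Colec12/Ltc4s cluster, and 59.6 and 37.3 CPM in HEC. In the Cyp1a1/Enpp6 cluster it was at 0, 109.5 and 56.1 CPM (0, 219 and 23 UMIs), with 44 cells in the control library. Arterial EC were also the subset with the most *Col23a1* in the control library, at 42, 49.4 and 31 CPM over the 3 libraries. *Col5a2* reached 35.7, 116 and 10.3 CPM in arterial EC, with only 1 UMI in replicate 2.

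Calls against PP CapEC, at least 2-fold the same way in every library with 10 cells of both, followed these levels. A gene under 50 UMIs on 1 side was tested only through the other side. *Col8a1* in the Bmp2/Ckb cluster (82 control UMIs against 1 in PP CapEC) and *Col18a1* in HEC (162 against 1) were such genes. *Col4a1*, *Col4a2*, *Col13a1* and *Col15a1* were tested in every subset through PP CapEC, which favours lower calls. No excess over the share of all genes is therefore read from these counts. PCV had 0 higher and 4 lower of 5 tested (4.16% of all genes tested) and the Cytl1/Adgrg6 cluster 0 higher and 4 lower of 4 tested (1.42% of all genes tested), with *Col4a1*, *Col4a2*, *Col13a1* and *Col15a1* lower in both. HEC had 1 higher and 3 lower of 8 tested (14.5% of all genes tested), with *Col18a1* higher and *Col4a1*, *Col4a2* and *Col13a1* lower. The Bmp2/Ckb cluster had 1 higher and 4 lower of 5 tested (3.45% of all genes tested), with *Col8a1* higher, and the Colec12/Ltc4s cluster 1 higher and 1 lower of 5 tested (2.51% of all genes tested), with *Col18a1* higher and *Col13a1* lower. The Cyp27a1/Cxcl1 cluster had 0 higher and 3 lower of 4 tested (7.01% of all genes tested). CRP had 0 higher and 1 lower of 4 tested (1.63% of all genes tested) and dividing EC 0 higher and 1 lower of 4 tested (4.84% of all genes tested), in both cases *Col13a1*. Arterial EC had 0 higher and 1 lower of 4 tested (3.01% of all genes tested) and the Cyp1a1/Enpp6 cluster 0 higher and 1 lower of 6 tested (1.14% of all genes tested), in both *Col15a1*. The Scgb3a1/Prom1 cluster had 0 higher and 0 lower of 4 tested (1.02% of all genes tested).

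**Figure D3:**
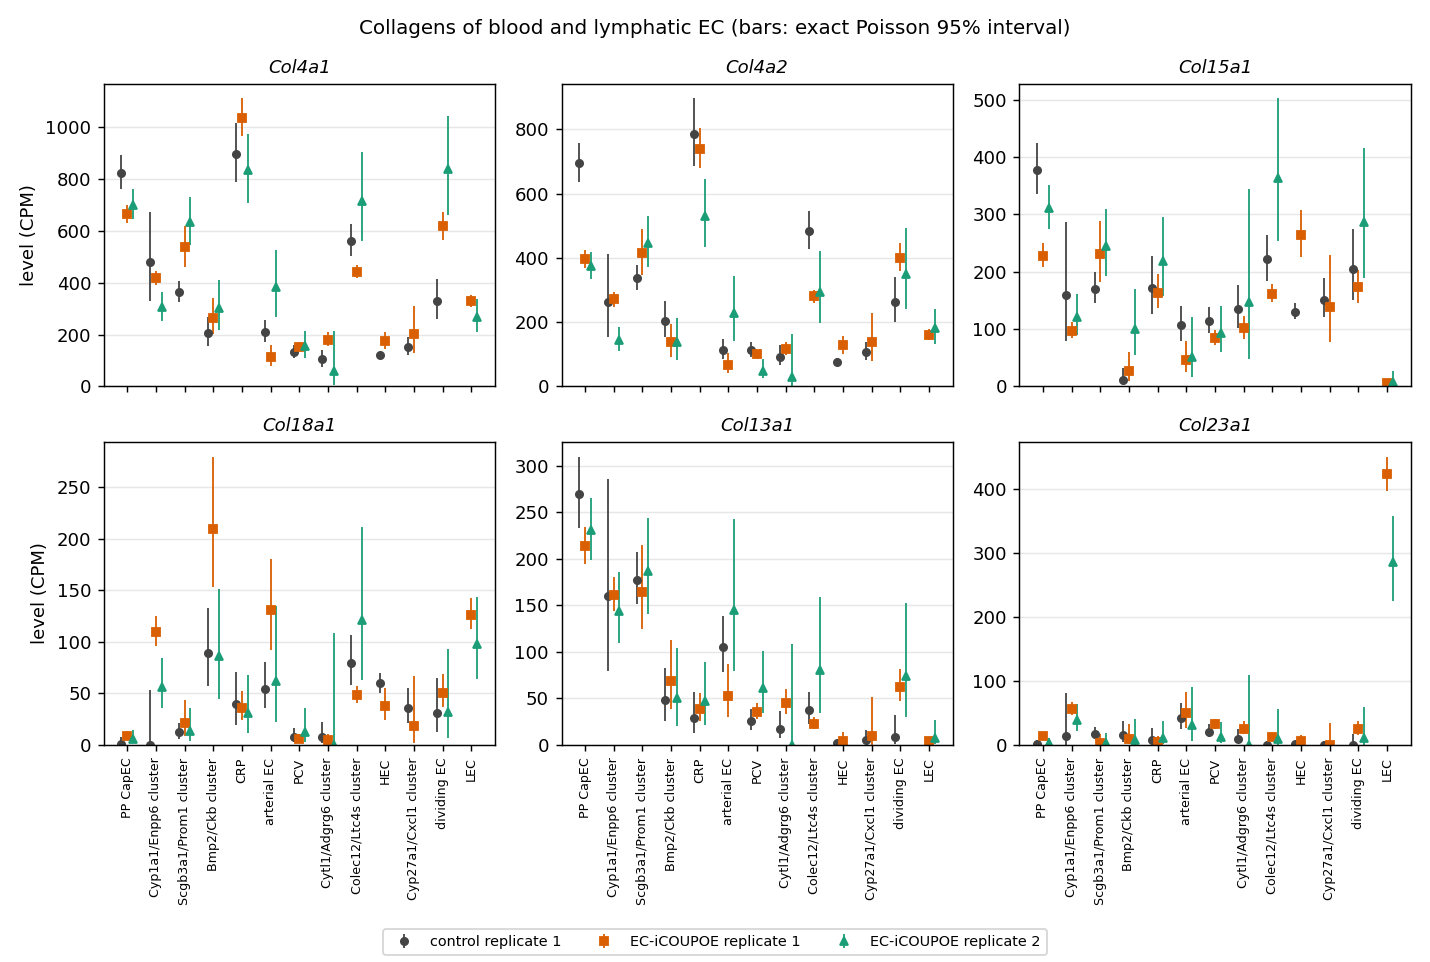
Level in CPM (y axis) of *Col4a1*, *Col4a2*, *Col15a1*, *Col18a1*, *Col13a1* and *Col23a1* in each blood EC subset and in LEC (x axis), with 1 symbol for each library with 10 cells or more; bars are exact Poisson 95% intervals. *Col4a1* peaks in CRP and PP CapEC, *Col13a1* in PP CapEC and 2 further clusters, and *Col23a1* in LEC at 423 and 286 CPM.

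Whether raised COUP-TFII changes the collagens of endothelium was addressed by setting each EC-iCOUPOE library against the single control library, which every such comparison shares. Calls were made only for genes that reached 50 UMIs in some library, and needed a change of 2-fold or more in the same direction in replicates 1 and 2. Since a single control library has no replicate, no test was made by this rule, and ± gives the SD of the 2 log2 ratios. In pooled blood EC, 11 of the 44 collagens could be compared: 0 were called higher and 4 lower, where 4.68% of all genes tested were called higher and 2.47% lower. The 4 were *Col1a1*, *Col1a2*, *Col3a1* and *Col8a1*. All 4 reached 50 UMIs only in the control library, where they were high. Their direction thus followed from the filter, and no excess over the share of all genes is read from them. The quasi-likelihood fit of edgeR takes the spread from the EC-iCOUPOE pair alone. Its log2 ratios were -5.77 for *Col3a1*, -8.11 for *Col1a1*, -4.81 for *Col1a2* and -2.54 for *Col8a1*. These genes entered the fit through the same 50 UMIs, so it is no separate test of their direction. The median log2 ratio was 0.14 over the 11 collagens and 0.08 over all genes tested.

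The basement membrane genes of blood EC were not called. *Col4a1* was 1.47- and 1.86-fold above the control in replicates 1 and 2, a mean log2 ratio of 0.73 ± 0.24 (SD, n = 2). Counting intervals of its 3 levels did not overlap. The mean log2 ratio was 0.27 ± 0.06 (SD, n = 2) for *Col4a2*, 0.14 ± 0.40 (SD, n = 2) for *Col15a1*, 0.85 ± 0.56 (SD, n = 2) for *Col13a1*, -0.11 ± 0.35 (SD, n = 2) for *Col18a1* and 1.01 ± 0.66 (SD, n = 2) for *Col23a1*. As means over cells the values were -0.10 for *Col4a2*, 0.34 for *Col18a1* and 0.25 for *Col13a1*, and in cells with 0 UMIs of fibroblast genes 0.13 for *Col23a1*. Without replicate 2, *Col15a1* was at -0.14. The pooled cells differed in makeup. HEC were 362 of 2474, 80 of 3509 and 2 of 997 blood EC, and the Cyp1a1/Enpp6 cluster held 44, 609 and 160 cells. Within PP CapEC the direction of *Col4a1* was the opposite, at 826, 664 and 702 CPM, a mean log2 ratio of -0.27 ± 0.06 (SD, n = 2).

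In PP CapEC 4 collagens could be compared and 0 were called, where 8.01% of all genes tested were called. All 4 lay below the control in both EC-iCOUPOE libraries, but *Col13a1* turned at another clustering resolution and with doublets kept. *Col4a2* was at 695, 396 and 373 CPM, a mean log2 ratio of -0.86 ± 0.06 (SD, n = 2). *Col15a1* was at 378, 228 and 312 CPM, a mean log2 ratio of -0.50 ± 0.32 (SD, n = 2). *Col13a1*, at 269.8, 214 and 231 CPM, had -0.28 ± 0.08 (SD, n = 2), and 0.17 at resolution 1.6 and 0.27 with doublets kept. The median log2 ratio over the 4 was -0.39 and over all genes tested -0.05. Different clusters held most of PP CapEC in the 2 genotypes: of 2 clusters with this name, the first held 25, 728 and 301 cells and the second 463, 108 and 59.

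Other subsets gave isolated calls. In the Bmp2/Ckb cluster 1 of 3 collagens was called (7.64% of all genes tested), *Col8a1*. In arterial EC 1 of 4 was called (4.65%), *Col15a1*, lower at 107, 45.9 and 51.6 CPM (51, 13 and 5 UMIs). In dividing EC 1 of 4 was called (11.1%), *Col13a1*, higher at 8.94, 62.7 and 74.2 CPM, although the control held 2 UMIs in 23 cells. No collagen was called among 3 in CRP (8.48%), 5 in the Colec12/Ltc4s cluster (5.14%), 6 in the Cyp1a1/Enpp6 cluster (9.77%), 3 in the Cytl1/Adgrg6 cluster (2.60%), 5 in PCV (4.74%) and 4 in the Scgb3a1/Prom1 cluster (3.61%). In pericytes, to which the Cre is not directed, 1 of 3 collagens was called (5.35%): *Col3a1*, at 2, 86 and 31 UMIs in 22, 53 and 43 cells. Each of these called genes reached the 50 UMIs of the rule in 1 library only. This was the control library for *Col8a1* and *Col15a1*, called lower, and replicate 1 for *Col13a1* and *Col3a1*, called higher. The direction of these calls thus followed from the filter, and no excess over the share of all genes is read from them. HEC and the Cyp27a1/Cxcl1 cluster had under 10 cells in replicate 2, LEC had none in the control library, and fibroblasts and glia had under 10 in both EC-iCOUPOE libraries, so none of these was compared.

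The 3 fibrillar genes called lower in blood EC need the fibroblast content of the libraries beside them. *Col3a1* had 287, 7 and 3 UMIs in blood EC, *Col1a2* 212, 2 and 8 and *Col1a1* 174, 0 and 1. *Col3a1* was 67.2-fold lower in replicate 1 (95% interval 32.2 to 169) and 29.1-fold lower in replicate 2 (95% interval 9.85 to 142). The control library held 2461 fibroblasts and the EC-iCOUPOE libraries 5 and 4. Fibroblast genes that are not collagens moved with them in blood EC: 9 such genes, *Dcn* and *Lum* among them, summed to 179, 12.3 and 10.2 CPM, and the 3 fibrillar collagens to 83.5, 0.681 and 4.9 CPM. Of the whole list of 10, 7 could be compared; *Dcn*, *Lum*, *Dpt*, *Fbln1*, *C3* and *Gsn* were called lower and *Serping1*, at 51.8, 242 and 256 CPM, higher. All 10 had UMIs in control blood EC. The part of fibroblast RNA in the endothelial fibrillar counts was not tested.

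Relative to control fibroblasts, control blood EC held *Col3a1* at 0.715% of the fibroblast level (95% interval 0.635 to 0.803%), *Col1a1* at 0.675%, *Col1a2* at 0.627% and *Col6a1* at 0.491%. The 9 fibroblast genes other than *Serping1* lay between 0.299% (*Dcn*) and 0.832% (*C3*), and *Serping1* at 2.38%. *Col4a1* stood at 93.4% of the fibroblast level, *Col4a2* at 80.9%, *Col15a1* at 129.7%, *Col23a1* at 64.6%, *Col18a1* at 34.5%, *Col8a1* at 27.3% and *Col13a1* at 832%. Of 22 collagens compared in this way, 16 lay above the highest of those 9 fibroblast genes and 6 did not. These are point values. The 95% intervals of *Col4a5* (0.406 to 13.1%), *Col5a3* (0.289 to 2.76%), *Col6a3* (0.682 to 1.40%) and *Col14a1* (0.724 to 1.35%) included 0.832%. *Serping1*, left out of the 9, lay above some of the 16, *Col5a1* (1.41%) among them. The mix of fibrillar chains in control blood EC did not differ from that of fibroblasts beyond counting error. *Col1a2* to *Col1a1* was 1.22 (95% interval 0.992 to 1.5) in blood EC and 1.31 in fibroblasts, and *Col3a1* to *Col1a1* 1.65 (95% interval 1.36 to 2.0) and 1.56. *Col1a2* to *Dcn*, however, was 0.546 (95% interval 0.46 to 0.648) in blood EC and 0.261 in fibroblasts, a difference beyond counting error, with 0.176 to 0.549 over the 7 fibroblast groups. HEC held 85 of the 174 *Col1a1* UMIs, 114 of the 212 of *Col1a2* and 147 of the 287 of *Col3a1* in the control library, and 0 of any of the 3 in replicate 1.

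**Figure D4:**
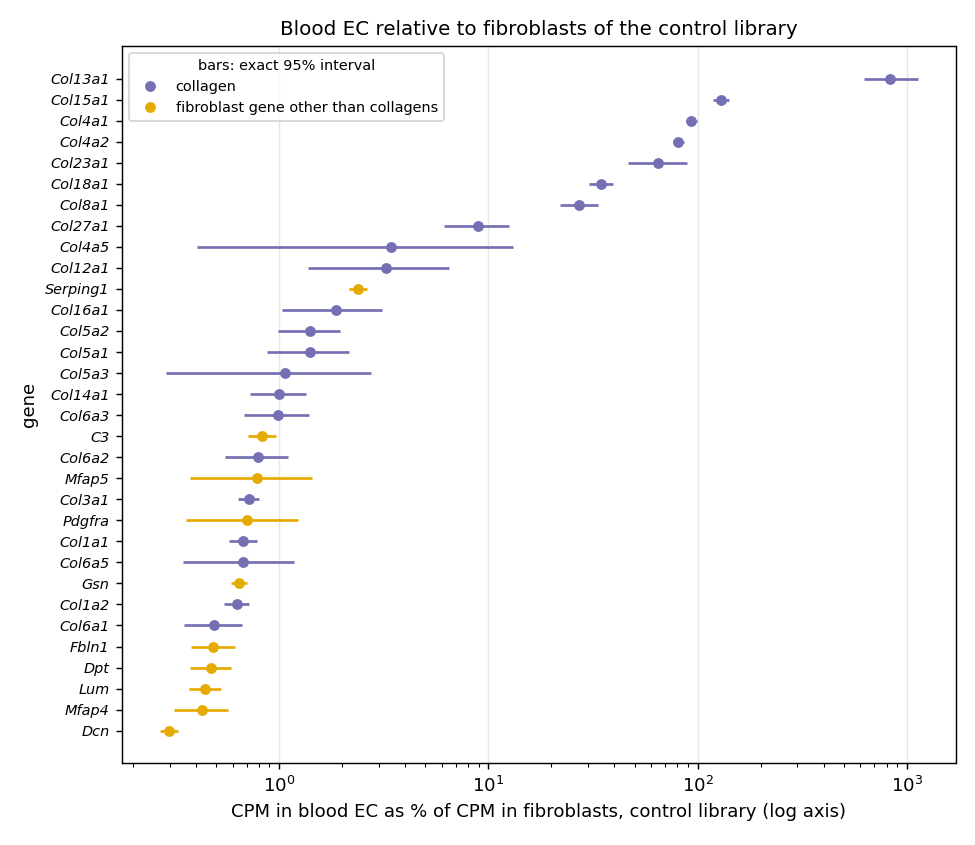
Level of each gene in control blood EC as a percentage of its level in control fibroblasts (x axis, log scale), for collagens with at least 50 UMIs in fibroblasts and for the fibroblast genes other than collagens; bars are exact 95% intervals. *Col1a1*, *Col1a2*, *Col3a1* and *Col6a1* sit at the left among the fibroblast genes, and *Col4a1*, *Col4a2*, *Col15a1* and *Col13a1* at the right.

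In blood EC with 0 UMIs of the 10 fibroblast genes (1545 of 2474, 1915 of 3509 and 630 of 997 cells) the fibrillar counts of the control library dropped but did not vanish. *Col3a1* had 83, 3 and 2 UMIs there and kept its call. It again reached 50 UMIs only in the control library, so its direction followed from the filter here too. *Col1a1* had 47, 0 and 1 and *Col1a2* 48, 0 and 4, under the 50 UMIs that the rule needs. *Col4a1* was at 380.1, 511 and 658 CPM in these cells. The list behind this filter includes *Serping1*, which was called higher in the EC-iCOUPOE libraries. Blood EC held 1861, 3361 and 652 UMIs of the 10 genes, but 1444, 162 and 25 of the 9 without *Serping1*. Cells were thus not left out alike in the 2 genotypes, and the part of fibroblast RNA in the remaining counts was not tested.

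*Col8a1* was called lower as well. In blood EC it had 124, 25 and 11 UMIs (15.4, 1.89 and 4.49 CPM), and the Bmp2/Ckb cluster held 82, 12 and 6 of them, at 304, 54.7 and 43.3 CPM, the largest level of any blood EC subset in each library. Within that cluster it was 5.56-fold lower in replicate 1 (95% interval 3.02 to 11.2) and 7.02-fold lower in replicate 2 (95% interval 3.09 to 19.7), a mean log2 ratio of -2.64 ± 0.24 (SD, n = 2). The cluster held 116, 77 and 51 cells. *Col8a1* reached the 50 UMIs of the rule there only in the control library, so its direction followed from the filter. Fibroblast genes moved with it there. *Col1a1*, *Col1a2* and *Col3a1* together had 36, 0 and 2 UMIs in the cluster and the 9 fibroblast genes 89, 0 and 2, and their control levels of 133 and 329.9 CPM were the highest of the blood EC subsets. Control *Col8a1* in the cluster (304 CPM, 95% interval 242 to 377) lay between its levels in Ackr4/Stc2 (195 CPM) and Pi16 fibroblasts (400.4 CPM), and *Pi16* is among the leading genes of the cluster. Over all control fibroblasts *Col8a1* was lower, at 56.5 CPM. The 10 fibroblast genes summed to 40434 CPM in control fibroblasts and 449 CPM in the control cluster. The part of fibroblast RNA in the *Col8a1* counts was not tested. In the blood EC with 0 UMIs of the 10 fibroblast genes, *Col8a1* had 65, 14 and 7 UMIs (16.2, 2.32 and 4.89 CPM). It kept its call, with the limit of this filter given above. It again reached the 50 UMIs of the rule only in the control library, so its direction followed from that rule.

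The balance of the type IV chains also differed between libraries. In blood EC the ratio of *Col4a1* to *Col4a2* UMIs was 1.23 (95% interval 1.16 to 1.31) in the control library, 1.55 (1.49 to 1.62) in replicate 1 and 1.84 (1.68 to 2.02) in replicate 2. In PP CapEC it was 1.19, 1.68 and 1.88, and in the Colec12/Ltc4s cluster 1.16, 1.58 and 2.45. Of 11 types with 10 cells or more in each of the 3 libraries and UMIs of both genes to compare, 8 had a higher ratio in both EC-iCOUPOE libraries than in the control. The exceptions were the Cyp1a1/Enpp6 cluster, arterial EC and smooth muscle. Of the 8, only PP CapEC and the Colec12/Ltc4s cluster had the 95% intervals of both EC-iCOUPOE libraries apart from that of the control. Pericytes were among the 8, at 0.778, 1.77 and 3.2 from 7, 53 and 32 UMIs of *Col4a1*, although the Cre is not directed to them, and their control interval (0.246 to 2.35) was wide. Whether the ratio follows the genotype or the library cannot be told apart with 1 control library. Control fibroblasts stood at 1.07 and LEC at 2.03 and 1.48.

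**Figure D5:**
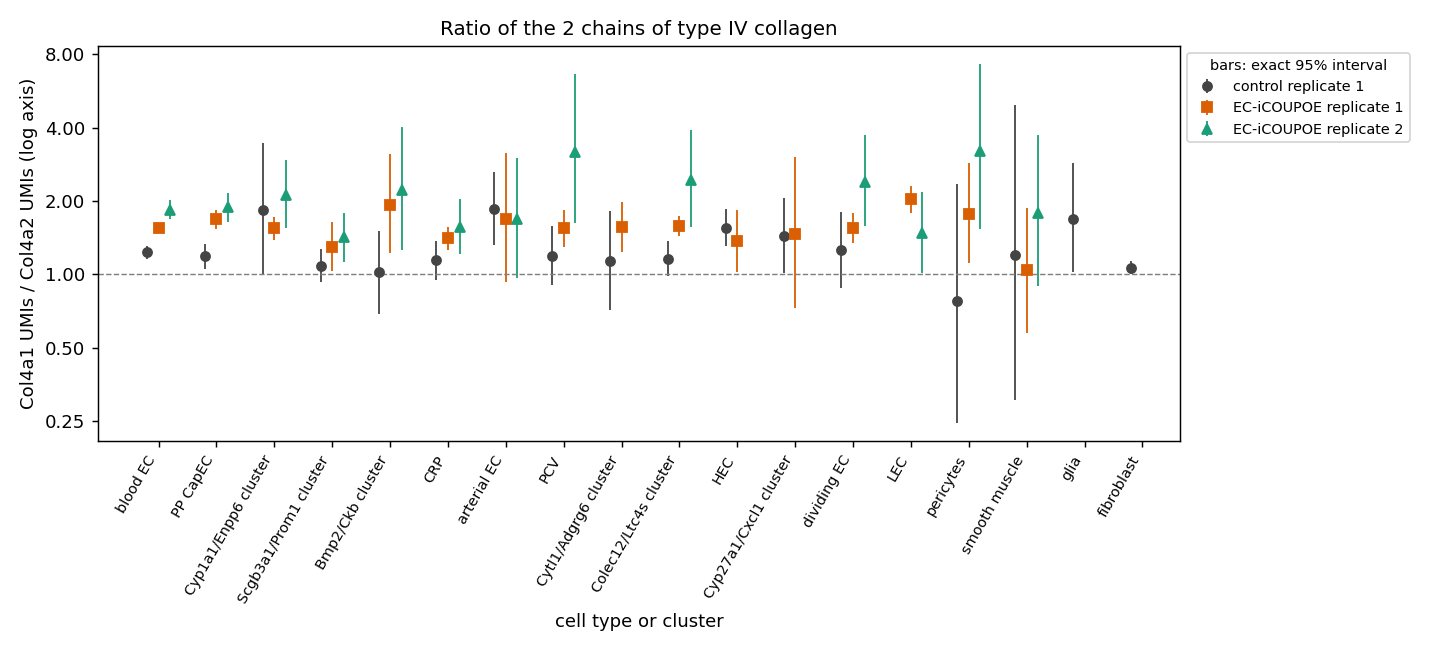
Ratio of *Col4a1* to *Col4a2* UMIs (y axis, log scale) in blood EC, each subset and the other types (x axis), with 1 symbol for each library; bars are exact 95% intervals. In blood EC the 3 libraries lie apart at 1.23, 1.55 and 1.84.

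Genes that build, bind and break down collagen were read beside the members in blood EC. Of 32 genes for collagen synthesis and crosslinking, 23 could be compared, 2 were called higher and 1 lower, near the 4.68% and 2.47% of all genes tested, with a median log2 ratio of 0.33. *Colgalt2*, which adds galactose to collagen chains, was at 4.96, 12.1 and 11.8 CPM, and *Lox*, which crosslinks fibrils, at 1.74, 14.4 and 20.8 CPM. *Pcolce*, an enhancer of procollagen cleavage and abundant in fibroblasts (1152 CPM), was lower at 116, 22.4 and 15.9 CPM. The highest levels were those of *Sparc*, a collagen-binding glycoprotein (1038, 1476 and 1971 CPM), *Ppib*, a prolyl isomerase (565, 906 and 502 CPM), and *Serpinh1*, the collagen chaperone HSP47 (330.1, 449 and 679 CPM). Of 10 collagen receptors and uptake genes, 4 could be compared and 0 were called (median log2 ratio -0.48); *Itgb1* was at 221, 306 and 229 CPM, *Itga1* at 205, 158 and 204 CPM and *Itga2* at 19.7, 18.2 and 6.12 CPM. Of 9 breakdown genes, 5 could be compared, 1 of them called higher and 2 lower (median log2 ratio -0.61). *Timp3*, a matrix-bound inhibitor of metalloproteinases, was called higher at 302, 956 and 1986 CPM, and *Timp1* (82.8, 32.9 and 20.4 CPM) and *Timp2* (225, 89.4 and 40 CPM) were called lower. *Timp3* was also called higher in 7 of the 10 blood EC subsets compared.

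The 20 collagens with under 50 UMIs over all barcodes were too sparse to be ordered between types. The most frequent were *Col9a2* with 49 UMIs, all in the control library, *Col4a4* and *Col6a4* with 39 each, *Col8a2* with 33, *Col6a6* with 31, and *Col4a3* and *Col9a3* with 28 each. *Col2a1*, the main fibrillar collagen of cartilage, *Col10a1* of hypertrophic cartilage and *Col25a1* had 1 UMI each.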

How the data were processed

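Peyer's patch cells of 1 control and 2 EC-iCOUPOE libraries were assayed by droplet 3′ RNA sequencing. The authors deposited filtered UMI count matrices made with Cell Ranger 3.0.2 against mm10. The header of the matrix of EC-iCOUPOE replicate 1 names 3.1.0. Barcodes were kept from 500 genes and 1000 UMIs upward where mitochondrial genes took no more than 10% of UMIs (5473, 4750 and 1243 cells), and doublets called by Scrublet in scanpy 1.11.5 (141, 58 and 4, which is 0.322% in replicate 2) were removed. Seurat 5.3.0 in R 4.3.3 was used to cluster them at resolution 1 with 2000 variable genes, from which collagens, *Nr2f2* and sex-linked genes were left out, 30 components and 20 neighbours. Clusters of mixed lineage (257 cells) and 49 further cells with as many markers of another lineage were left out. UMIs were summed per type and library. Calls needed a 2-fold difference, 50 UMIs in a library, more than 3 UMIs on the higher side and 10 cells per library. A library below 3 UMIs was set to 3 in fold rules. Between types, the difference had to hold in every library with both types. Intervals (exact Poisson, Clopper-Pearson or conditional) were computed with scipy 1.17.1. edgeR 4.0.16 was an alternative, with TMM scaling, other count filters, 1.5-fold, resolutions 0.6 and 1.6, doublets kept, cells without fibroblast genes, means over cells, and each library left out. The calling steps were tested on simulated data.

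The members and gene lists were chosen with earlier results of these data known. Named by rule were collagens with 50 UMIs in an EC subset, the 5 highest in each stromal type, those called in endothelium, and of the other lists those called in blood EC and the 3 highest there. Further collagens were named after their values were seen.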

Additional observations from a re-analysis of the deposited data

How the results depend on the processing

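The count of collagens called in blood EC (4 of 11 tested) was 12 of 22 with genes of at least 10 UMIs. It was 12 of 27 with no filter on low counts, in each case 2 higher and 10 lower. In cells with 0 UMIs of fibroblast genes it was 2 of 8 (*Col3a1* and *Col8a1*). Leaving out EC-iCOUPOE replicate 1 gave 5 of 10, and leaving out replicate 2 gave 6 of 11. In PP CapEC (0 of 4 called) the count was 3 of 9 at 10 UMIs, 4 of 18 with no filter and 1 of 4 (*Col4a2*) at 1.5-fold. The share of all genes called under these alternatives is not given here, so no excess is read from the counts. The collagen share of blood EC was 0.1279% in cells with 0 UMIs of fibroblast genes, and that of fibroblasts 1.713% as a mean over cells. The calls of the named fibroblast groups, glia, pericytes, smooth muscle and LEC against blood EC numbered 78. Comparisons of the unnamed fibroblast groups, of EC subsets with PP CapEC and among fibroblasts are not in this count. Without control replicate 1, which holds all fibroblasts and glia compared, there were 16, of which 11 were among the 78. Without EC-iCOUPOE replicate 1 there were 79 (77 shared), and without replicate 2 also 79 (78 shared). Of 180 values of single genes under the alternatives, 171 kept their side of the rule, 4 moved past it, 5 no longer passed, and no called gene changed direction. Part of this was fixed in advance. Looser count filters cannot change a gene already tested at 50 UMIs, and 1.5-fold cannot undo a call made at 2-fold. The tally is therefore no measure of how firm the calls are. Uncalled log2 ratios did change sign: *Col13a1* in PP CapEC (-0.28) was 0.17 at resolution 1.6 and 0.27 with doublets kept, and in blood EC *Col18a1* (-0.11) was 0.34 and *Col4a2* (0.27) -0.10 as means over cells, while without replicate 2 *Col18a1* was 0.14 and *Col15a1* (0.14) -0.14. The alternatives for LEC were not run, since the control library held 0. No paired analysis was possible because the control group has 1 library. Small clusters and genes under 50 UMIs limit what could be compared.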
